A study of Mus musculus with 6 samples.

Results

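The 10 genes examined here build the intermediate filament system of the cell, and they were compared between *Phf2* KO and control C2C12 cells. They are the cytoplasmic filament genes *Des*, *Vim*, *Nes* and *Synm*, the epithelial keratin genes *Krt8* and *Krt18*, the lamin genes *Lmna*, *Lmnb1* and *Lmnb2*, and *Plec*, whose product ties filaments to other structures. They were picked by gene symbol, and all 10 had a row among the 55401 genes of the count matrix. C2C12 cells are mouse myoblasts that form myotubes once serum is lowered. Polyadenylated RNA was sequenced from 3 control and 3 *Phf2* KO libraries of cells 2 d post differentiation in medium with 2% horse serum. *Phf2* KO cells had received a pool of plasmids with Cas9, the green reporter ZsGreen and different guides against *Phf2*. Control cells, wild type in the labels, had received a plasmid with Cas9 and ZsGreen whose guide matches no mouse sequence. Both groups were sorted for the reporter, expanded without cloning and stored frozen, and the libraries are wells of the same experiment. Each group is thus 1 pool of cells, the spread between libraries is that between wells, and a difference between the pools and an effect of the knockout cannot be told apart.

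Intermediate filaments are rope-like polymers of rod-shaped proteins. Desmin is the filament protein of muscle, where it surrounds the Z-discs and links myofibrils to each other, to the membrane and to the nucleus, while vimentin and nestin are typical of myoblasts and become less prominent as fibers mature. Synemin joins desmin and vimentin filaments as a minor partner, and keratins 8 and 18 form the paired filament of simple epithelia. Lamins are the nuclear members of the family and form the mesh under the inner nuclear membrane. A-type lamins come from *Lmna* and B-type lamins from *Lmnb1* and *Lmnb2*. Plectin is a giant linker of the plakin family that anchors desmin to Z-discs, costameres, mitochondria and the nuclear envelope.

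The total of estimated counts was 56821143 to 58507833 in the control libraries and 52526109 to 67502788 in the *Phf2* KO libraries. *Phf2*, which encodes a histone demethylase, had 102.4, 95.5 and 104.6 CPM in control replicates 1 to 3 and 41.1, 37.6 and 38.6 CPM in *Phf2* KO replicates 1 to 3, which is 38.8% of the control mean. Levels compared between libraries are given as CPM, counts scaled to the library total after TMM normalization. Levels compared between genes are given as TPM, which also accounts for transcript length. The threshold was an adjusted p of 0.05 in edgeR's quasi-likelihood test, fitted on all 17310 genes that passed the filter on low counts.

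Of the 10 genes, 8 passed the filter on low counts and 2 (*Krt8* and *Krt18*) did not. Past the threshold, 4 of the 8 were lower in *Phf2* KO cells (*Des*, *Lmnb2*, *Plec* and *Nes*) and none was higher. Of all 17310 genes tested, 6.48% passed in either direction, 3.26% lower and 3.22% higher. The count of higher members was also 0 at an unadjusted p under 0.05 and with exactTest, DESeq2 and limma-voom, but it was 1 without control replicate 3 (*Vim*, adjusted p = 0.0212 in the quasi-likelihood test). With a library left out, 2 to 4 members were lower, and the count was 2 without control replicate 2 or *Phf2* KO replicate 2. The largest of the 4 falls was that of *Des*, to 77.5% of the control level. In bulk RNA, fewer cells of a kind and less RNA per cell cannot be told apart. *Lmna*, *Lmnb1*, *Vim* and *Synm* did not pass. The median log2 fold change of the 8 genes was -0.16, against -0.001 for all genes tested. *Plec* is also named by the study among genes lowered in these same libraries, so its direction here is not independent of that choice.

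**Figure D1:**
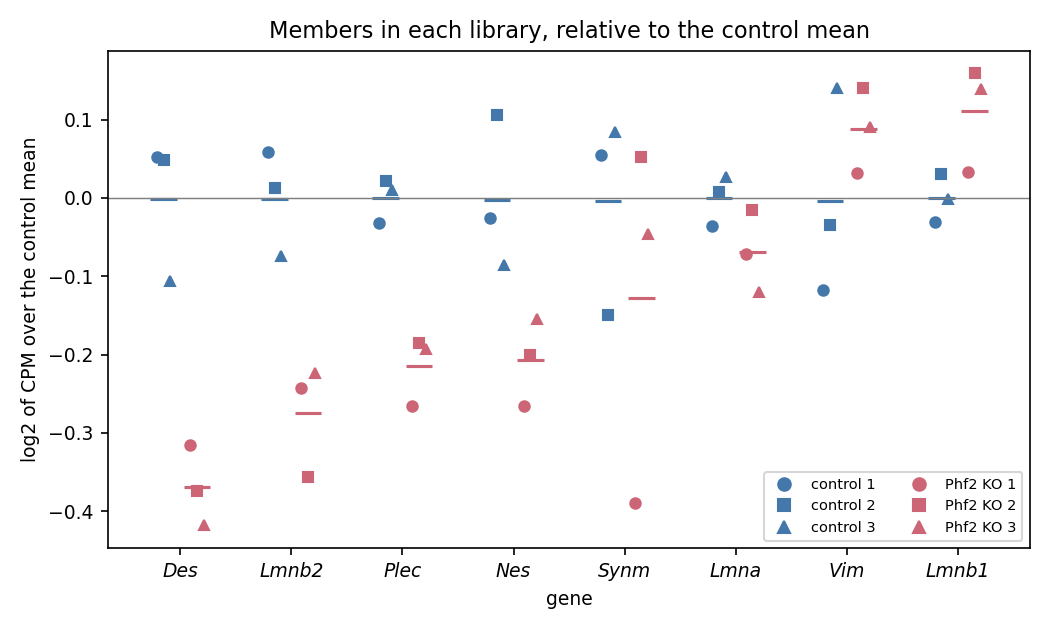
The log2 of CPM over the control mean (vertical axis) is plotted for the 8 tested members (horizontal axis), with a point for each library and a bar at the mean of each group of 3 libraries. All *Phf2* KO points of *Des*, *Lmnb2*, *Plec* and *Nes* lie below the control points, and those of *Lmnb1* lie above them.

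The promoters of members that fell past the threshold are shown here. In the RefSeq promoter table (GRCm38.p6), entries were matched for 8 of the 10 members, and none for *Plec* and *Lmnb1*. The 250 bases before the annotated start are printed 5′ to 3′ on the strand of the gene, with each E-box (CANNTG, the letters that myogenic bHLH factors such as MyoD bind) in capitals.
Des promoter: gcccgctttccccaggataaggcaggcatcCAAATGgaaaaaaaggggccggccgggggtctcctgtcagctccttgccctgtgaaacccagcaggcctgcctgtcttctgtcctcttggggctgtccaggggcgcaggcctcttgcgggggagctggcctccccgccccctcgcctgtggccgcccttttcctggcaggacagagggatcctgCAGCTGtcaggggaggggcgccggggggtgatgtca
Nes promoter: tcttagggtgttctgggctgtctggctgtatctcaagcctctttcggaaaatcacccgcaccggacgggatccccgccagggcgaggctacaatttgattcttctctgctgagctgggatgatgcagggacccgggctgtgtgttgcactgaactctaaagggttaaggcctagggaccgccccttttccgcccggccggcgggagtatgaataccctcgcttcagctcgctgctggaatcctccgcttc
Lmnb2 promoter: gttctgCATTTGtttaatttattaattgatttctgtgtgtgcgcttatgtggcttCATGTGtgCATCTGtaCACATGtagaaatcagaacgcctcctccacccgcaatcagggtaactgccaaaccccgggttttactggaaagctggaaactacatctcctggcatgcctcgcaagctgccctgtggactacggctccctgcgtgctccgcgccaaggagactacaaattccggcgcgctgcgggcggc
The *Des* window (chr1:75360042-75360291, plus strand) held 2 E-boxes, the *Lmnb2* window (chr10:80918246-80918495, minus strand) held 4 and the *Nes* window (chr3:87970843-87971092, plus strand) held none. Of the 32851 promoter windows of this length, 66.2% held at least 1 E-box, counted on both strands. A GC box (GGGCGG, the Sp1 site, either strand) was found 2 times in *Des*, 2 times in *Nes* and 1 time in *Lmnb2*, and 32.7% of all windows held it. Neither a CArG box nor a MEF2 consensus site was found in any of the 8 windows matched, while 1.47% and 2.92% of all windows held them. Such matches describe the letters of these windows, and the muscle enhancer known for *Des* lies further upstream than the stretch shown.

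*Des* (ENSMUSG00000026208, GRCm38 chr1:75360329-75368579, plus strand, 9 exons) is the gene of the muscle filament. Its level was 1129, 1125 and 1011 CPM in control replicates 1, 2 and 3, and 875.0, 840.0 and 814.8 CPM in *Phf2* KO replicates 1, 2 and 3. No *Phf2* KO library reached the lowest control library, and control replicate 3 was the control nearest to them. The mean fell from 1088 ± 66.7 CPM in control cells to 843.2 ± 30.3 CPM in *Phf2* KO cells (SD, n = 3). On the log2 scale this is a change of -0.37 ± 0.046 (standard error), with an adjusted p of 3.24e-04 in edgeR's quasi-likelihood test. *Des* was the only one of the 10 genes that stayed past the threshold in all fits run: in the 6 that each left out a library its largest adjusted p was 0.00685, and in the 12 other fits the largest was 0.0306. Within the pairs of libraries with the same number, the log2 difference was -0.37, -0.42 and -0.31.

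*Plec* (ENSMUSG00000022565, chr15:76170974-76232574, minus strand, 22 annotated transcripts) encodes plectin. It had 1443, 1498 and 1487 CPM in control cells and 1228, 1298 and 1291 CPM in *Phf2* KO cells. The groups did not overlap in CPM, and the control libraries differed by little, with a coefficient of variation of 1.96%. The mean fell from 1476 ± 28.9 CPM in control cells to 1272 ± 38.7 CPM in *Phf2* KO cells (SD, n = 3), a log2 difference of -0.21 ± 0.036 (standard error), with an adjusted p of 0.00257 in the quasi-likelihood test. The fall held with each library left out (largest adjusted p = 0.0324) but not with limma on TPM, where the adjusted p was 0.103 after adding 1 and 0.102 after adding 0.1 before the log2. The neighbouring *Parp10* lies on the same strand, overlaps *Plec* by 1401 bases and shares 0.721% of its 75-base stretches. It had 69.7 CPM in control cells and 64.2 CPM in *Phf2* KO cells.

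*Nes* (ENSMUSG00000004891, chr3:87971078-87980451, plus strand, 5 exons) encodes nestin, the large filament protein of precursor cells. It measured 1706, 1869 and 1637 CPM in control cells and 1445, 1512 and 1561 CPM in *Phf2* KO cells. The groups did not overlap, but control replicate 3 and *Phf2* KO replicate 3 lay close to each other, with a log2 difference of -0.07 within that pair against -0.24 and -0.31 in the pairs 1 and 2. The mean fell from 1737 ± 119.2 CPM in control cells to 1506 ± 58.4 CPM in *Phf2* KO cells (SD, n = 3), a log2 difference of -0.21 ± 0.048 (standard error), with an adjusted p of 0.0220 in the quasi-likelihood test. Of the 4 calls this was the least firm. *Nes* stayed past the threshold without control replicate 3 (adjusted p = 0.00464), and the other 5 fits without a library gave 0.0596 to 0.120. With edgeR's exactTest, which the study names, its adjusted p was 0.0787.

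*Vim* (ENSMUSG00000026728, chr2:13573927-13582826, plus strand, 9 exons) encodes vimentin. It stood at 2319.7, 2458 and 2775 CPM in control cells and at 2575, 2775 and 2679.8 CPM in *Phf2* KO cells. The groups overlapped, and control replicate 3 was as high as the highest *Phf2* KO library. The change on the log2 scale was 0.09 ± 0.062 (standard error), with an adjusted p of 0.514 in the quasi-likelihood test, opposite in sign to that of *Des*. Without control replicate 3 it was 0.16 with an adjusted p of 0.0212, so that library decided whether *Vim* passed.

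*Synm* (ENSMUSG00000030554, chr7:67730160-67759742, minus strand) encodes synemin and was the lowest of the tested members. It had 11.0, 9.58 and 11.3 CPM in control cells and 8.11, 11.0 and 10.3 CPM in *Phf2* KO cells. The groups overlapped, and *Phf2* KO replicate 1 was the lowest of the 6 libraries. The log2 fold change was -0.12 with a standard error of 0.13 (adjusted p = 0.713 in the quasi-likelihood test). Leaving out *Phf2* KO replicate 1 brought it to 0.0042, and leaving out replicate 2 of the same group to -0.21. *Ttc23*, on the opposite strand, spans the whole of *Synm*, but their transcripts share only 0.149% of the 75-base stretches of *Synm*. That gene had 16.9 CPM in control cells and 18.3 CPM in *Phf2* KO cells.

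Among the lamins, *Lmnb2* (ENSMUSG00000062075, chr10:80901203-80918245, minus strand, 12 exons) was the member that passed. It measured 71.1, 68.8 and 64.8 CPM in control cells and 57.7, 53.3 and 58.5 CPM in *Phf2* KO cells. The groups did not overlap. The mean fell from 68.2 ± 3.16 CPM in control cells to 56.5 ± 2.79 CPM in *Phf2* KO cells (SD, n = 3), to 82.8% of the control level, a log2 difference of -0.27 ± 0.056 (standard error), with an adjusted p of 0.0102 in the quasi-likelihood test. The call was lost without control replicate 2 (adjusted p = 0.0617), without *Phf2* KO replicate 2 (0.0664) and with limma on log2 TPM (0.145 with either pseudocount).

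*Lmnb1* (ENSMUSG00000024590, chr18:56707813-56753424, plus strand, 11 exons) encodes the other B-type lamin. It had 42.3, 44.1 and 43.1 CPM in control cells and 44.2, 48.2 and 47.5 CPM in *Phf2* KO cells. Each *Phf2* KO library lay above each control library, although *Phf2* KO replicate 1 and control replicate 2 differed by less than 0.1 CPM. The change on the log2 scale was 0.11 ± 0.058 (standard error), with an adjusted p of 0.319 in the quasi-likelihood test, and it passed in none of the fits. *Lmnb1* was thus 1 of 5 members whose groups did not overlap, next to the 4 that passed. Among all genes tested 25.1% had such groups, 12.2% with *Phf2* KO libraries lower and 12.9% with them higher.

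*Lmna* (ENSMUSG00000028063, chr3:88480147-88509956, minus strand, 12 exons) encodes lamins A and C, which muscle nuclei rely on to bear force. It had 853.0, 878.9 and 890.4 CPM in control cells and 831.5, 865.1 and 804.2 CPM in *Phf2* KO cells. *Phf2* KO replicate 2 lay within the control range and the other two lay below it. The change on the log2 scale was -0.07 ± 0.039 (standard error), with an adjusted p of 0.374 in the quasi-likelihood test, and over the alternatives it ran from -0.10 to -0.04.

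*Krt8* (ENSMUSG00000049382, chr15:101996698-102004482) and *Krt18* (ENSMUSG00000023043, chr15:102028180-102032027) lie beside each other. *Krt18* was listed at 0 counts in all 6 libraries, where 3 counts would be 0.0443 to 0.0571 CPM. As 1 read pair adds several counts, the limit in read pairs is higher than these values. *Krt8* had 16, 10 and 9 counts in control replicate 2 and *Phf2* KO replicates 2 and 3, and 0 in the other 3 libraries, so no fold change is given for either gene. The tables of single libraries list *Krt18* at 0.0967 TPM in control replicate 2 and 0.131 TPM in *Phf2* KO replicate 2, and *Krt8* at 0.0437 TPM in *Phf2* KO replicate 1, where the matrix has 0. A processed pseudogene, *Krt8-ps*, shares 22.0% of the 75-base stretches of *Krt8* and had at most 4 counts in a library. These limits cover counting error only.

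The order of the levels differed between the groups in that *Des* and *Lmna* changed places. In control cells it was *Vim* (2478 ± 243.7 TPM), *Des* (780.1 ± 43.2 TPM), *Lmna* (678.9 ± 20.4 TPM), *Nes* (623.0 ± 39.0 TPM), *Plec* (124.8 ± 1.47 TPM), *Lmnb2* (43.7 ± 2.38 TPM), *Lmnb1* (32.9 ± 0.623 TPM) and *Synm* (3.24 ± 0.326 TPM; all SD, n = 3). Of these neighbours, only *Lmna* and *Nes* overlapped in their libraries. In *Phf2* KO cells *Lmna* (651.2 ± 15.5 TPM) stood above *Des* (609.4 ± 9.58 TPM), and no library of *Des* reached the lowest of *Lmna*. *Lmnb2* (36.1 ± 2.34 TPM) and *Lmnb1* (35.8 ± 2.27 TPM) kept their order by mean only, and they overlapped. Within *Phf2* KO replicate 2, *Lmnb1* (36.8 TPM) lay above *Lmnb2* (33.8 TPM), while every control library had more *Lmnb2* than *Lmnb1*. By mean TPM over the 6 libraries, *Vim* ranked 37th, *Des* 174th, *Lmna* 186th and *Nes* 215th among the 17310 genes tested, while *Lmnb2* ranked 4001st and *Lmnb1* 4556th. *Plec* depended most on how its transcripts were grouped: the locus assembled from the reads had 1.68 to 2.07 times the TPM of the reference gene. For the other 7 tested genes this ratio was between 0.990 and 1.01, and *Plec* kept its place between *Nes* and *Lmnb2* with either value. In TPM of the assembled locus, however, the groups of *Plec* overlapped. There *Phf2* KO replicate 3 (231.1 TPM) lay above control replicates 1 and 2 (221.5 and 223.2 TPM).

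**Figure D2:**
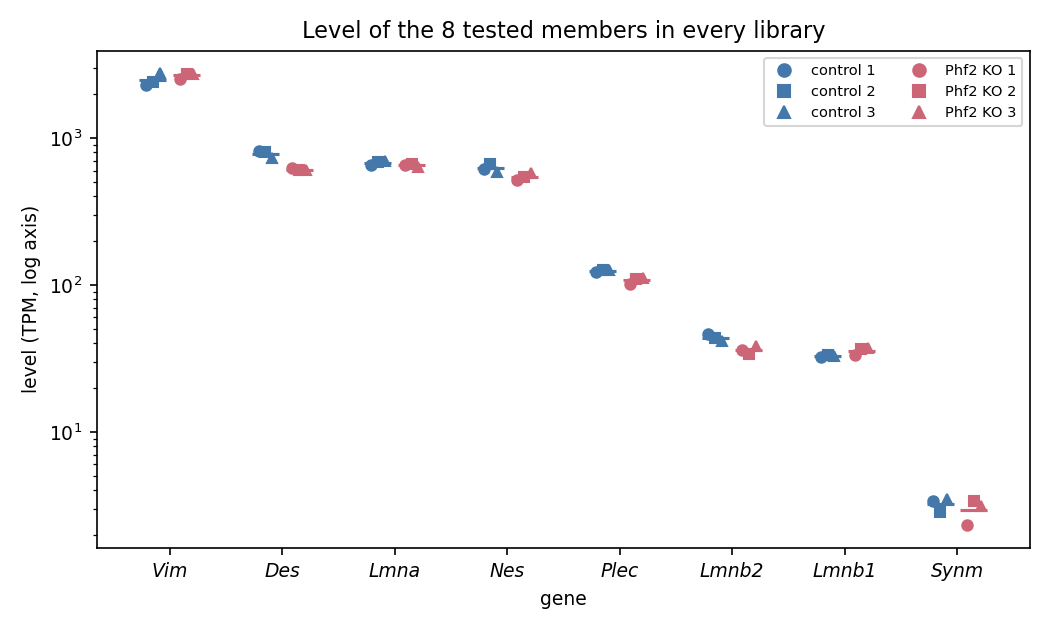
The TPM of the 8 tested members (vertical axis, log scale) is plotted per library, ordered by the control mean, with bars at the group means of 3 libraries. *Vim* stands at 2279 to 2750 TPM in all libraries, and *Des* crosses from above *Lmna* in control cells to below it in *Phf2* KO cells.

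The balance between the filaments was also read within each library, as a ratio of TPM that does not depend on library size. The *Vim* to *Des* ratio was 2.82, 3.00 and 3.77 in control cells and 4.05, 4.54 and 4.51 in *Phf2* KO cells. The groups did not overlap, although control replicate 3 came close to *Phf2* KO replicate 1. The mean was 3.20 ± 0.502 in control cells and 4.37 ± 0.277 in *Phf2* KO cells (SD, n = 3; p = 0.1 in a two-sided exact permutation test, the smallest that 3 libraries against 3 allow). Of the summed TPM of *Des*, *Vim*, *Nes* and *Synm*, *Des* held 20.1% ± 2.01 in control cells and 16.0% ± 0.888 in *Phf2* KO cells, and *Vim* held 63.7% ± 3.30 and 69.6% ± 0.777 (SD, n = 3). The sum itself was 3704 to 4074 TPM in control cells and 3647 to 3909 TPM in *Phf2* KO cells, which overlap. The *Lmnb1* to *Lmna* ratio was 0.0490, 0.0490 and 0.0473 in control cells and 0.0510, 0.0552 and 0.0587 in *Phf2* KO cells, without overlap (p = 0.1 in the same exact test). *Lmna* held 89.3% to 90.4% of the summed lamin TPM in every library. The *Krt18* to *Krt8* ratio was not computed, because only 2 libraries had both above 0 TPM.

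**Figure D3:**
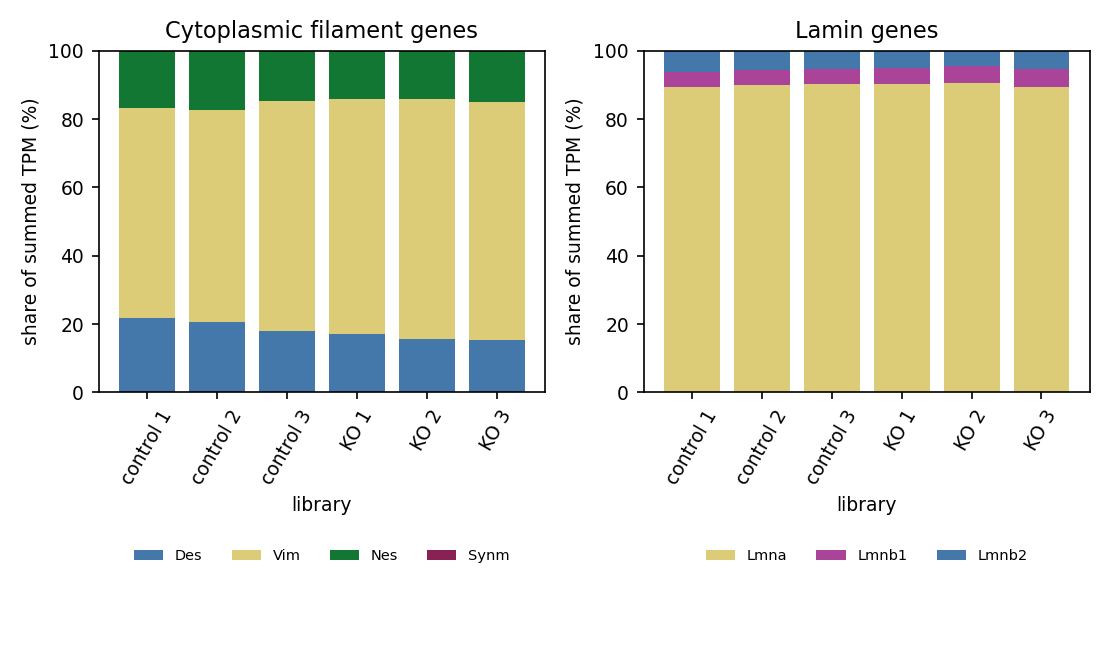
Bars give the share of summed TPM (vertical axis, percent) held by each cytoplasmic filament gene (left) and each lamin gene (right) in each of the 6 libraries. *Des* takes 15.5% to 17.0% in *Phf2* KO libraries and 17.9% to 21.8% in control libraries, while the share of *Lmna* is between 89.3% and 90.4% throughout, and *Synm* is too low to be seen.

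By the root mean square difference of log2 CPM over the 6 libraries, each gene centred on its own mean, the genes most like *Des* among 10922 others with at least 5 CPM were *Dok7* (0.0216), *Etl4* (0.0216), *Ccnd3* (0.0249), *Jph2* (0.0264) and *H19* (0.0330). *Dok7* encodes an adaptor of the neuromuscular synapse, *Ccnd3* a D-type cyclin, *Jph2* a junctophilin that ties membranes at calcium release sites, and *H19* an imprinted noncoding RNA. Each was past the threshold and lower in *Phf2* KO cells, with log2 fold changes from -0.37 (*H19*) to -0.33 (*Jph2*). A fold change near that of *Des* follows by construction, as these genes were picked for their likeness to *Des* in the same libraries. Among the members, *Lmnb2* came nearest to *Des*, at rank 100 (0.0731). *Nes* was at rank 447 (0.110), *Plec* at rank 464 (0.111), and *Vim* at rank 8525 (0.268).

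The rest of the intermediate filament family was scarce in these cells. Of 24 further filament genes, 11 were tested and 19 had a mean under 1 CPM, among them 8 keratins with 0 counts in every library (*Krt1*, *Krt4*, *Krt5*, *Krt6a*, *Krt16*, *Krt17*, *Krt20* and *Krt23*). Of these 8, *Krt16* was listed at 0.0514 TPM in the table of *Phf2* KO replicate 3 and the rest at 0. *Krt13*, a keratin of stratified epithelia, was the only one of the 11 past the threshold, where 6.48% of all genes tested passed. It rose from 1.03 ± 0.368 CPM in control cells to 3.21 ± 0.0644 CPM in *Phf2* KO cells (SD, n = 3), a log2 difference of 1.63 ± 0.28 (standard error), with an adjusted p of 0.00276 in the quasi-likelihood test. The call held with each library left out and was lost in the limma fit of log2(TPM + 0.1). *Sync*, which encodes the desmin partner syncoilin, had the highest level of the list, with 65.6 TPM in control cells and 59.2 TPM in *Phf2* KO cells (log2 fold change -0.17, adjusted p = 0.120 in the quasi-likelihood test). The median log2 fold change of the 11 genes was -0.12.

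Genes of the nuclear envelope and of lamin processing were measured next to the lamins. All 29 listed genes were tested. Over all genes tested, 3.26% were lower past the threshold and 3.22% higher. Of these 29, 4 were lower and none was higher past the threshold (2 higher at an unadjusted p under 0.05). The median log2 fold change was -0.02. The largest of these falls were in genes of membrane proteins found mainly in muscle. *Plpp7* fell from 8.37 ± 1.88 CPM in control cells to 4.53 ± 0.711 CPM in *Phf2* KO cells (SD, n = 3), a log2 difference of -0.88 ± 0.18 (standard error), with an adjusted p of 0.00930 in the quasi-likelihood test. *Tmem38a*, which encodes a cation channel of the sarcoplasmic reticulum and nuclear membrane, fell from 124.8 ± 7.89 CPM in control cells to 85.0 ± 1.02 CPM in *Phf2* KO cells (SD, n = 3), a log2 difference of -0.55 ± 0.050 (standard error), with an adjusted p of 3.22e-05 in the quasi-likelihood test. *Syne1*, whose product nesprin-1 links the nucleus to the cytoskeleton, had a log2 fold change of -0.29 (adjusted p = 0.00213 in the same test). It passed in 10 of the 12 other fits that kept all libraries. The related *Syne2* had 0.19, with groups that did not overlap, and did not pass (adjusted p = 0.0739 in the same test). *Tor1aip1*, which encodes a lamin-binding membrane protein, had -0.20 (adjusted p = 0.0308 in the same test). The lamin partners *Emd* (log2 fold change -0.02), *Lbr* (0.01), *Sun1* (0.02), *Sun2* (0.06) and the prelamin protease gene *Zmpste24* (0.04) did not pass. Without a library, 2 to 4 of the 4 calls were made, with 2 without control replicate 2, *Phf2* KO replicate 2 or *Phf2* KO replicate 3. When libraries were paired by number, 5 were lower, as *Banf1* (log2 fold change -0.18) had an adjusted p of 0.0477 in place of 0.0870.

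Plakins and the partners of desmin and plectin were counted in the same way. Of 30 listed genes, 29 were tested, 8 were lower and none was higher past the threshold (1 higher at an unadjusted p under 0.05). The median log2 fold change was -0.03. Over all genes tested, 3.26% were lower past the threshold and 3.22% higher. The plakins *Macf1* (log2 fold change -0.27, standard error 0.054, adjusted p = 0.0103 in the quasi-likelihood test) and *Dst* (-0.15, standard error 0.040, adjusted p = 0.0467) were lower, as *Plec* was. *Dag1*, which encodes dystroglycan, fell from 601.2 ± 13.9 CPM in control cells to 470.3 ± 14.96 CPM in *Phf2* KO cells (SD, n = 3), a log2 difference of -0.35 ± 0.040 (standard error), with an adjusted p of 1.44e-04 in the quasi-likelihood test. The study also names *Dag1* among genes lowered in these same libraries. *Pkp1*, a plakophilin gene, had a log2 fold change of -0.53 (adjusted p = 0.00783 in the same test). The small heat shock protein genes *Cryab*, whose product protects desmin, and *Hspb8* had log2 fold changes of -0.24 and -0.20 (adjusted p = 0.00883 and 0.0453 in the same test). *Hspb1* had 0.05 and *Bag3* had 0.02, and neither passed. *Itga6* (-0.23, adjusted p = 0.0286) and *Flnc* (-0.19, adjusted p = 0.00877 in the quasi-likelihood test) complete the 8. *Dst* and *Flnc* were named after their values were seen. The count was 1 without control replicate 2, 3 without *Phf2* KO replicate 2, 4 without control replicate 1, *Phf2* KO replicate 1 or *Phf2* KO replicate 3, and 5 with exactTest. When libraries were paired by number it was 7, as *Hspb8* had an adjusted p of 0.0632.

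**Figure D4:**
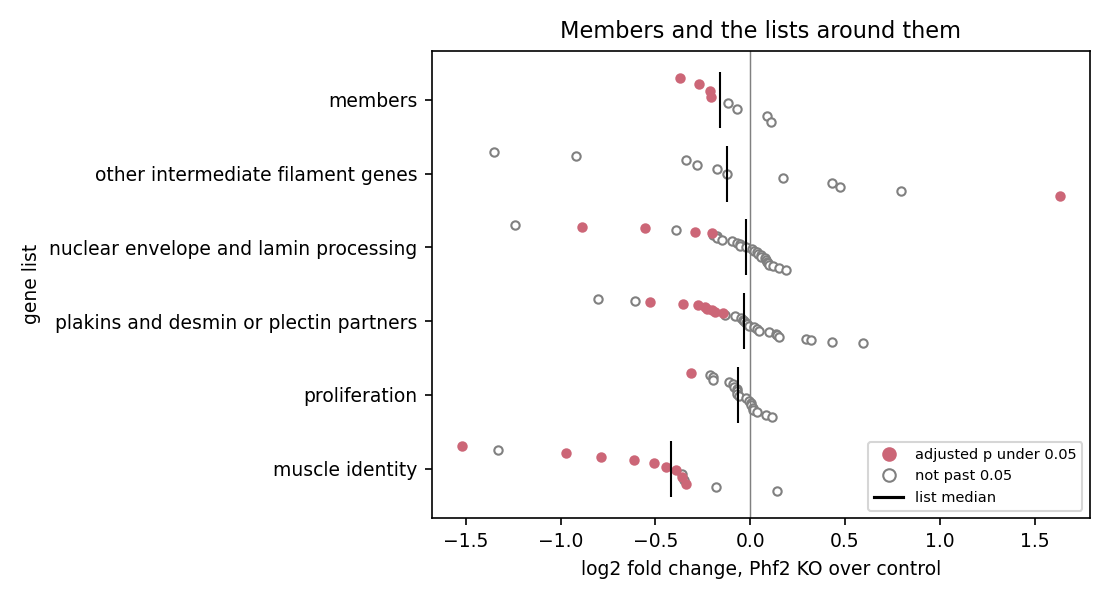
Log2 fold changes (horizontal axis, *Phf2* KO over control) of the tested members and of the tested genes of 5 lists (vertical axis) are plotted as 1 point a gene, filled where the adjusted p is under 0.05, with a line at the list median. Among the members and the 5 lists drawn, the medians lie between -0.16 and -0.02 except for muscle identity, which is at -0.42.

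Most markers of muscle identity were lower, as were the members that fell. Of 14 such genes, 14 were tested, 9 were lower and none was higher past the threshold. None was higher at an unadjusted p under 0.05 either. Of all genes tested, 3.26% were lower past the threshold and 3.22% higher. The median log2 fold change of the list was -0.42. Its summed level was 6987 to 8754 TPM in control cells and 5580 to 6194 TPM in *Phf2* KO cells. *Myf5* was the only marker with a positive log2 fold change (0.14, adjusted p = 0.282 in the quasi-likelihood test). Among those past the threshold, the largest falls were those of the transcription factor gene *Mef2c* and the myoglobin gene *Mb*, with log2 fold changes of -1.52 and -0.97 (adjusted p = 6.97e-05 and 3.45e-06 in the quasi-likelihood test). *Myf6*, under 1 CPM, had -1.33 and did not pass (adjusted p = 0.462 in the same test). The fusion gene *Mymk* had a log2 fold change of -0.50 and the creatine kinase gene *Ckm* -0.78 (adjusted p = 2.98e-04 and 8.70e-05 in the quasi-likelihood test). *Myog*, a myogenic transcription factor, had -0.34 (adjusted p = 0.0221) and *Acta1*, skeletal actin, -0.36 (adjusted p = 0.117, and 8.08e-04 when libraries were paired by number). The study also names *Mef2c*, *Myog*, *Mymk*, *Tnnc2* and *Myh3* among genes lowered in these same libraries, so their direction here is not independent. The part of the shift in muscle identity markers in the falls of *Des*, *Nes*, *Plec* and *Lmnb2* was not tested.

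Proliferation markers were counted too. Of 20 genes, 20 were tested and 1 was past the threshold, where 6.48% of all genes tested passed in either direction. This was *Rrm2*, a subunit of ribonucleotide reductase, with a log2 fold change of -0.31 (adjusted p = 0.0138 in the quasi-likelihood test). *Mki67* stood at 65.1 ± 3.59 CPM in control cells and 65.4 ± 3.29 CPM in *Phf2* KO cells (SD, n = 3). The median log2 fold change of the list was -0.06, and its summed level was 420.3 to 440.6 TPM in control cells and 380.1 to 419.7 TPM in *Phf2* KO cells.

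Markers of other cell types were checked in the same libraries. All 9 epithelial markers had a mean under 1 CPM, with *Epcam*, *Cldn4*, *Esrp1* and *Krt5* at 0 counts in every library, and their summed level was at most 0.786 TPM in control and 1.43 TPM in *Phf2* KO libraries. Of 9 fibroblast markers 2 were at 0 (*Thy1* and *Tcf21*), 2 were higher past the threshold (*Col1a1* and *Col1a2*, log2 fold changes of 0.20 and 0.15) and 1 was lower (*Dpt*, -0.90). *Dcn* (0.21) had an adjusted p of 0.204 in the quasi-likelihood test, and 0.0331 when libraries were paired by number. Their summed level was 3680 to 3770 TPM in control and 4246 to 4298 TPM in *Phf2* KO libraries. Of 7 smooth muscle markers, *Actg2*, *Tagln* and *Acta2* were higher past the threshold (0.31, 0.25 and 0.17). The other 3 tested had negative log2 fold changes and did not pass, among them *Cnn1*, with -0.52, groups that did not overlap and an adjusted p of 0.0782 in the quasi-likelihood test, and *Smtn*, with -0.10. The summed level of the list was 3773 to 3844 TPM in control and 4325 to 4366 TPM in *Phf2* KO libraries. Most of this sum was *Acta2*, with a mean of 3213 TPM in control and 3639 TPM in *Phf2* KO cells. The defining smooth muscle markers *Myh11* and *Myocd* had a mean under 1 CPM. Of 7 adipocyte markers, 5 had a mean under 1 CPM, with *Plin1* and *Lep* at 0 counts. *Cebpa* was higher past the threshold (0.65), while *Pparg* (-0.05) and *Fabp4* (-0.75, under 1 CPM) did not pass. The summed level was 27.1 to 36.8 TPM in control and 44.5 to 48.8 TPM in *Phf2* KO libraries. *Cebpa* alone had a mean of 27.0 TPM in control and 42.9 TPM in *Phf2* KO cells. Of 7 bone and cartilage markers, 5 had a mean under 1 CPM. *Runx2* was higher past the threshold (0.31), while *Sox9* (-0.0050) and *Bglap* (-0.45, under 1 CPM) did not pass. The summed level was 40.8 to 52.0 TPM in control and 47.4 to 52.1 TPM in *Phf2* KO libraries. Of 7 neural markers, 5 had a mean under 1 CPM. *Tubb3* was lower past the threshold (-0.62), and *Nefl* (-0.34) did not pass. The summed level was 12.1 to 16.6 TPM in control and 9.93 to 10.2 TPM in *Phf2* KO libraries. The part of these markers of other cell types in the members' differences was not tested.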

How the data were processed

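RNA was measured in 3 control and 3 *Phf2* KO libraries, grouped by their sample titles. Per the methods and labels, the authors used HISAT2 for alignment to mm10 and StringTie for counting. Versions and annotation are not given in the sources used here. Values of the deposited matrix are whole-number estimated counts without scaling by library size. A count stands for about 75 covered bases (median 74.98 to 74.99 in genes with 1 transcript and at least 500 counts), so 1 read pair adds several counts. TPM and FPKM come from 1 deposited table per library. The authors' TPM is a signal relative to the total of its own library. These tables list transcripts both as reference genes and as assembled loci, and rows of reference genes were used. Coordinates and overlaps are from GENCODE M21 (GRCm38, the assembly of mm10).

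Differences were fitted on the counts (edgeR 4.0.16, R 4.3.3): filterByExpr (minimum count 10), TMM, and the quasi-likelihood test with robust dispersion, adjusted by Benjamini-Hochberg over 17310 genes (threshold 0.05). The study's methods name exactTest, which was an alternative. So were DESeq2 1.42.0, limma-voom and limma (3.58.1) on log2(TPM + 1) and log2(TPM + 0.1), other scalings and filters, counts divided by 4 or summed per symbol, a replicate block, an adjusted p under 0.01, and each library left out. Libraries with the same number deviated together (correlations over 10923 genes of 0.183, 0.345 and 0.234). They were therefore treated as pairs in the replicate block and the sign flips, but not in the main test. This pairing comes from the data and is given by neither the labels nor the paper. The correlations do not establish it, and control replicate 1 and *Phf2* KO replicate 3 also had a positive one (0.0899). Ratios were compared by exact permutation. The procedure was also run on simulated data with planted changes larger than those of the members, which does not bear on changes of their size. Figures were drawn in Python 3.11.15.

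The 10 members and the gene lists were chosen with earlier results of these data known. Named were the members, *Phf2*, at most 6 genes past the threshold per list (those with the largest change), *Myog*, *Ckm*, *Acta1* and *Mki67*, and the 5 genes most like *Des*. Values of other listed genes stand beside them and were chosen after their values were seen. P-values measure the spread between wells of 1 experiment.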

Additional observations from a re-analysis of the deposited data

How the results depend on the processing

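The 4 falls among the members kept their direction in every fit run. *Des* stayed past the threshold throughout, *Plec* in all but the limma fits of TPM, *Lmnb2* in 14 and *Nes* in 10 of the 18 fits other than the reported one. Limma on log2(TPM + 1) gave 158 genes (70 higher, 88 lower), 1 member lower, 1 lower nuclear envelope gene, 2 lower plakins or partners and 0 lower proliferation genes. Limma on log2(TPM + 0.1) gave 178 genes (78 higher, 100 lower), the same list counts of 1, 1, 2 and 0, and 0 higher genes among the other intermediate filament genes. At an adjusted p under 0.01 there were 472 genes (204 higher, 268 lower), 2 members lower, 4 plakins or partners lower and 0 proliferation genes lower. With exactTest, 5 plakins or partners were lower. The cause of these shifts was not tested, except that the stricter threshold lowers counts by construction.

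With each library left out, all genes past the threshold ranged from 468 to 1039 (206 to 507 higher, 262 to 532 lower). Omitting control replicate 2 gave the 468, and omitting *Phf2* KO replicates 2 and 3 gave 577 and 613. Members lower ranged from 2 (without control replicate 2 or *Phf2* KO replicate 2) to 4, and members higher from 0 to 1, the 1 being *Vim* without control replicate 3. Lower genes ranged from 2 to 4 for the nuclear envelope, 1 to 7 for plakins and partners, 0 to 1 for the other filament genes and 0 to 1 for proliferation. Among the members and the list genes named by rule, log2 fold changes that changed sign were not past the threshold. *Synm* ranged from -0.21 to 0.0042 and *Mki67* from -0.031 to 0.048. *Mki67* had -0.0088 and -0.019 without *Phf2* KO replicates 2 and 3 and -0.0011 and -0.031 without control replicates 2 and 3. Other listed genes that did not pass, such as *Emd*, *Lbr*, *Sun1* and *Bag3*, also changed sign over the fits run.

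With the replicate block, 4 members were lower as before, and the log2 fold change of *Des* was -0.37. No call of a member changed. Among the genes of all lists, the block changed the calls of *Hspb8* (lost) and *Acta1*, *Banf1* and *Dcn* (gained) and no other call. Sign flips within pairs, an exact test, gave p = 0.25 for both ratios, the smallest that 3 pairs allow. Both ratios kept their direction in CPM, without any 1 library, and in TPM of assembled loci, which was chosen after seeing the data. The ratio in FPKM equals that in TPM by construction. Depth limits *Krt8* and *Krt18*, which could not be tested.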
